A study of Mus musculus with 22 samples.

Results

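The genes described here are the mouse heat shock protein (HSP) and DNAJ genes, a set chosen by name. It holds every protein-coding gene whose symbol begins with Hspa, Hspb, Hspd, Hspe, Hsph or Hsp9, or with Dnaj. The rule used the symbol and the gene biotype only, and found 73 of the 29367 genes in the count table, of which 18220 were protein coding. There were 29 genes with HSP names and 44 DNAJ genes, and 5 pseudogenes with such symbols were left out. The libraries held RNA bound to HA-tagged ribosomes of RiboTag mice (Rpl22 HA/HA, from the line B6J.129(Cg)-Rpl22tm1.1Psam/SjJ crossed to the GFAP-Cre line 73.12Mvs/J, on a C57Bl/6 background and labelled WT), in which a Cre recombinase under the mouse Gfap promoter acts without an inducer and tags the ribosomes of Gfap-expressing cells and their descendants. Mice aged 3 to 4 months received microbeads in 1 eye to raise intraocular pressure (IOP) and were sacrificed at 7 or 30 days. The unmyelinated optic nerve head (ONH) and an equal length of the myelinated optic nerve proper (ONP) behind it came from the same animals, with tissue from 4 mice, 2 of each sex, in every library. There were 4 ONH and 4 ONP libraries at 7 days and 7 of each at 30 days, all from injected mice, so every comparison is between days or regions after injury. Uninjured tissue was not analysed here.

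Depth ran from 16292489 to 33307092 counts per library, at which 3 counts equal 0.0897 to 0.191 CPM. CPM are counts scaled to a fixed library size, here after TMM normalization (trimmed mean of M values, a correction for library composition). Gfap, which marks astrocytes, was at 8781 to 23057 CPM in every library, and none of the 8 astrocyte markers was at 0. The 5 oligodendrocyte markers used (Mbp, Mog, Mag, Mobp and Cnp) summed to 57428 to 69528 CPM in the 7-day ONP libraries, 16846 to 57512 CPM in the 30-day ONP libraries, 14598 to 27465 CPM in the 7-day ONH libraries and 9898 to 30531 CPM in the 30-day ONH libraries. The 8 astrocyte markers summed to 13379 to 19665 CPM in the 7-day ONP libraries and 13800 to 30116 CPM in the 30-day ones. The paper saw the HA tag in cells with the astrocyte marker SOX9 and not with the oligodendrocyte marker OLIG2. In bulk samples such as these, fewer cells of a type, less RNA per cell and less RNA from untagged cells cannot be told apart. Which cells the RNA of the members came from was not tested. The 7-day ONH library 5 was the highest or lowest of its group for several heat shock genes, and although none of these gaps passed Dixon's test for a distant library, results that rest on it are given with and without it. Skeletal muscle markers summed to 51.9 CPM in that library, against 0.431 to 2.47 CPM in the other 7-day ONH libraries. The next highest sum was 24.7 CPM, in the 30-day ONP library 7. The part of these markers in the results was not tested.

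Heat shock proteins are molecular chaperones. HSP70 proteins hold unfolded stretches of other proteins through cycles of ATP hydrolysis, DNAJ proteins (also called HSP40) deliver clients to HSP70 and switch on its ATPase through their J domain, HSP110 proteins exchange its nucleotide, HSP90 proteins finish the folding of kinases and receptors, small HSPs hold aggregating proteins in solution, and the chaperonins Hspd1 and Hspe1 enclose proteins inside mitochondria. Under heat or other protein damage the factor Hsf1 binds heat shock elements in the promoters of the inducible members, whereas protein damage in the endoplasmic reticulum (ER) acts through ER stress elements. Astrocytes are known to carry high levels of small HSPs when they become reactive.

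By family the members were 11 HSP70, 3 HSP110, 3 HSP90 and 7 small HSP genes, 2 chaperonins, 4 DNAJA, 13 DNAJB and 27 DNAJC genes, and 3 others (Hspbp1, Hspb11 and Hspbap1). By place 40 were put in the cytosol and nucleus, 14 in the ER, 10 in mitochondria and 9 in vesicles, endosomes, cilia or an unclear place. By control 13 were classed as heat-inducible, 13 as constitutive and 7 as ER stress-inducible, from textbook knowledge, and 40 were not classed.

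Promoter sequence is shown for members that carry these elements and that turn up in the results. RefSeq promoter windows on GRCm38.p6, from 250 bases before to 50 bases after a start, matched 59 of the 73 members. A heat shock element was searched as the pair GAANNTTC or TTCNNGAA and as a triplet, in which a pair goes on with any 2 bases and a further GAA or TTC in alternation and which therefore contains the pairs. The ER stress element was searched as CCAAT and CCACG with any 9 bases between them, and all searches covered both strands. The stretches are written 5′ to 3′ on the gene's strand, with matches in capitals. Hspa1a (chr17:34972157-34972306, minus strand) and Hspa1b (chr17:34959239-34959388, minus strand) were alike at 149 of the 150 bases before their starts, and Hspb1 (chr5:135887769-135887918, plus strand) held 2 pairs.
Hspa1a: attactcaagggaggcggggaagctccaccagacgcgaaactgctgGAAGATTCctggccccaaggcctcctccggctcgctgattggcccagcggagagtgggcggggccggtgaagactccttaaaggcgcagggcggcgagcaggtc
Hspa1b: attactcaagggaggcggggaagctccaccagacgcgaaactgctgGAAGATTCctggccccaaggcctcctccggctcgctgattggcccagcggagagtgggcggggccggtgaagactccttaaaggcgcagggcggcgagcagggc
Hspb1: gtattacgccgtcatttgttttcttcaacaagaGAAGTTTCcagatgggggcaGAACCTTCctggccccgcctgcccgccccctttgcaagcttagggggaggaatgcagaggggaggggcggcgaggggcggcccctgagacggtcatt
Shorter stretches show the overlapping pairs of Hspd1 (chr1:55088053-55088082, minus strand) and a pair of Hsph1 (chr5:149636352-149636381, minus strand).
Hspd1: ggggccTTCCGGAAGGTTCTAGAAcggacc
Hsph1: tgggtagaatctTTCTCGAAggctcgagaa
The ER stress element appears in Hspa5 (chr2:34772020-34772049, plus strand) and, in both orientations, in Hsp90b1 (chr10:86705510-86705694, minus strand). The Hspa5 stretch lies 70 to 41 bases before the RefSeq start used, inside the annotated gene, which begins at 34771970.
Hspa5: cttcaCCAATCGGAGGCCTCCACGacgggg
Hsp90b1: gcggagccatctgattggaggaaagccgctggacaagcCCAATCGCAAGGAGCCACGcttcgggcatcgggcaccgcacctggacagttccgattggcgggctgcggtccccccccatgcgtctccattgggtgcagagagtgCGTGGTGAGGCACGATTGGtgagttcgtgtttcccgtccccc

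A pair was present in 10 of the 12 heat-inducible members that had a window (83.3%), in 1 of 9 constitutive members and in 1 of 6 ER stress-inducible members, and in 17% of all 27025 genes with a window. A triplet was present in 4 of the 59 members (6.78%) and in 0.662% of all genes. Hspd1 and Hspe1 lie head to head with overlapping windows, so the same pairs and triplets were counted for both. The near copies Hspa1a and Hspa1b were likewise counted singly. The members in these shares are therefore not all independent promoters. The ER stress element was found in 3 members, Hspa5, Hsp90b1 and Dnajc3, against 0.137% of all genes. These matches describe letters in a window, and a window without them says nothing of the factor. Hspa1a and Hspa1b were also alike in their coding sequence: of the 1780 stretches of 150 bases in the Hspa1b coding sequence, the length of a read, 969 (54.4%) occurred unchanged in Hspa1a. How counts were split between these genes is therefore uncertain. Their summed difference is given for the ONP over time, and their sum is used in the ratio to Hspa8. In the other comparisons their single differences carry this uncertainty.

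Levels between genes were compared per kilobase of merged exon. The 5 highest members were Hsp90ab1, the constitutive cytosolic HSP90, at a mean of 472 CPM per kilobase over the 22 libraries, Hspa8, the constitutive cytosolic HSP70, at 416, Hspa5, the ER HSP70 also called BiP, at 240, and the small HSPs Hspb1 and Hspb8 at 225 and 200. The ER HSP90 Hsp90b1 was at 145 and the inducible HSP90 Hsp90aa1 at 114 CPM per kilobase. The mitochondrial members Hspd1 and Hspa9 were at 53.4 and 51.7 CPM per kilobase. The inducible HSP70 genes Hspa1a and Hspa1b were much lower, at 11.7 and 7.86 CPM per kilobase, and took ranks 32 and 43 of 73. At the other end, Dnajb7, Dnajb8, Dnajc5b and Hspb9 had too few counts for testing in any comparison, and 65 members were tested in all 5 comparisons.

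**Figure D1:**
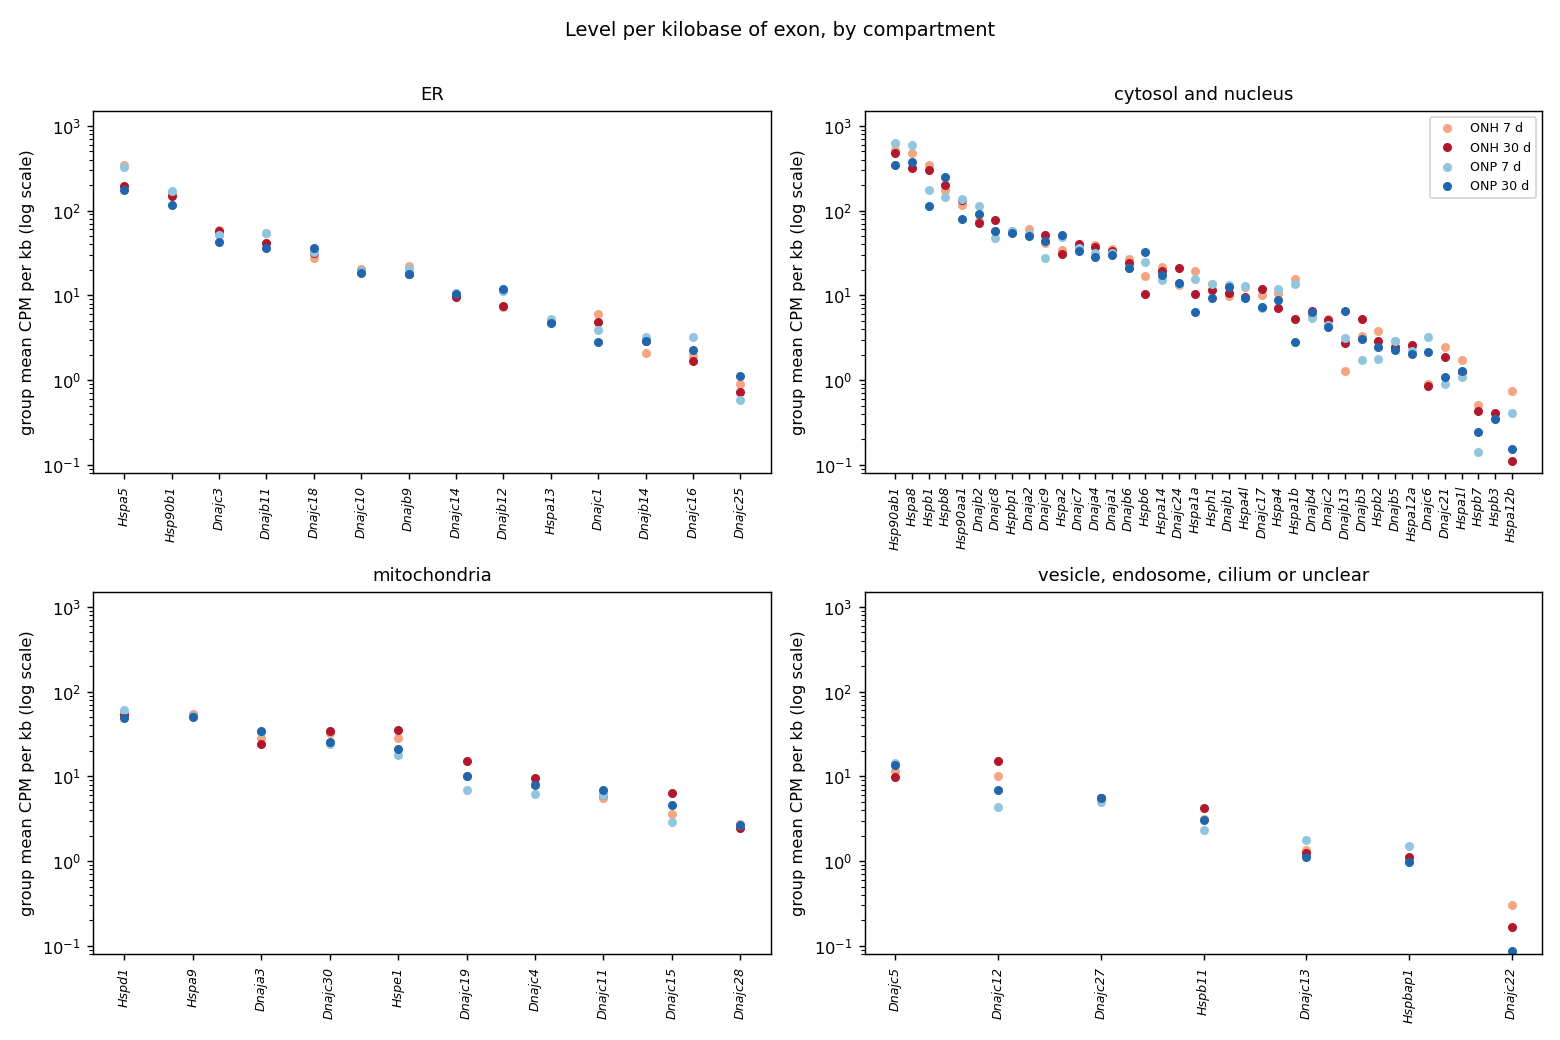
Mean level of each member in the 4 groups, in CPM per kilobase of merged exon on a log axis, for the 69 members at 0.1 CPM per kilobase or more over all libraries. Hsp90ab1 and Hspa8 stand at the top at 472 and 416 CPM per kilobase, and Dnajc22, at 0 in the 7-day ONP libraries, has no point for that group.

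All 73 members together took 1.05 to 1.28% of a library's counts in the ONP at 7 days and 0.831 to 0.944% at 30 days, so the groups did not overlap. In the ONH the share was 1.12 to 1.24% at 7 days and 0.879 to 1.06% at 30 days, again without overlap. Much of this share was Hspa8, Hsp90ab1 and Hspa5, which summed to 0.484 to 0.644% of counts in the ONP at 7 days and 0.321 to 0.357% at 30 days.

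The first question was how the chaperone genes changed between 7 and 30 days in the ONP. A total of 67 members were tested and 21 passed the threshold (edgeR quasi-likelihood test, Benjamini-Hochberg adjusted p under 0.05 over all genes), 4 higher and 17 lower at 30 days, against 17% of all genes tested. Higher calls alone were 7.82% and lower calls 9.21% of all genes. The median log2 difference was -0.10 over the members and -0.01 over all genes. Scaled to library size alone the members split into 7 higher and 12 lower, and the median of all genes moved to 0.11. The genes that fell included both inducible HSP70 genes, all 3 HSP90 genes, Hspa8, Hspa5, Hspa4, Hsph1 and Dnajb11, and 15 members had no overlap between the groups, against 12% of all genes.

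Hspa1b (ENSMUSG00000090877, GRCm38 chromosome 17, 34956436 to 34959238) had the greatest fall among the members called. It stood at 64.8, 43.5, 11.6 and 34.7 CPM in the 7-day ONP libraries and at 5.21 to 11.4 CPM, median 7.92, in the 30-day libraries. The 30-day libraries all lay under the 7-day ones, the lowest of which was library 5. The level fell by 2.33 on the log2 scale (SE 0.34, 5.02-fold lower, edgeR quasi-likelihood adjusted p = 0.00153). Hspa1a (ENSMUSG00000091971, chromosome 17, 34969190 to 34972156) stood at 58.6, 45.1, 36.6 and 46.4 CPM at 7 days and 14.6 to 24.6 CPM, median 18.6, at 30 days. The groups again did not overlap, and the fall was 2.55-fold (log2 -1.35, SE 0.15, edgeR adjusted p = 0.000435). With the counts of both genes summed the difference was -1.71 (edgeR adjusted p = 0.000528). Hspa2, Hspa12a, Hspa12b, Hspa13, Hspa14, Hspa1l and Hspa9, also of the HSP70 family, did not pass.

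Hspa8 (ENSMUSG00000015656, chromosome 9, 40800984 to 40810087), which folds new proteins and uncoats clathrin vesicles, was at 2944, 2540, 2222 and 2647 CPM at 7 days and 1499 to 1724 CPM at 30 days. All 7 of the 30-day libraries were lower, by 0.71 on the log2 scale (SE 0.096, edgeR adjusted p = 0.00103). Its nucleotide exchange partners fell too: Hsph1 from 95.8 to 106 CPM at 7 days to 60.6 to 75.1 CPM at 30 days (log2 -0.58), and Hspa4 from 59.6 to 73.9 CPM to 37 to 59.3 CPM (log2 -0.48, edgeR adjusted p = 0.0315). Neither overlapped between the groups. The third HSP110 gene, Hspa4l, had a log2 difference of -0.52 that missed the threshold (edgeR adjusted p = 0.0539).

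The HSP90 genes fell in both the cytosol and the ER. Hsp90ab1 (ENSMUSG00000023944, chromosome 17, 45567775 to 45573271) was at 2235, 1959, 1483 and 1904 CPM at 7 days and 941 to 1179 CPM at 30 days. Hsp90aa1 (ENSMUSG00000021270, chromosome 12, 110690605 to 110702728) was at 567, 602, 436 and 559 CPM and then at 244 to 408 CPM. Both groups of libraries were separate, library 5 being the lowest of the 7-day ONP libraries for each gene. The log2 differences were -0.89 for Hsp90ab1 (SE 0.12) and -0.81 for Hsp90aa1 (SE 0.14), with edgeR adjusted p of 0.000985 and 0.00335. Hsp90b1, which folds secreted and membrane proteins, went from 623 to 786 CPM to 418 to 530 CPM (log2 -0.59, edgeR adjusted p = 0.00207).

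In the ER, Hspa5 (ENSMUSG00000026864, chromosome 2, 34771970 to 34777547) was at 1647, 1339, 1281 and 1233 CPM at 7 days and 616 to 901 CPM at 30 days. Its J-domain partner Dnajb11 (ENSMUSG00000004460, chromosome 16, 22857845 to 22879634) was at 167 to 184 CPM and then at 107 to 126 CPM. Neither gene's groups overlapped, and the falls were 0.93 (SE 0.11) and 0.63 (SE 0.076) on the log2 scale, with edgeR adjusted p of 0.000651 and 0.000627. Dnajc1 and Dnajc16, ER membrane J proteins, fell by 0.52 and 0.55. The other ER stress-inducible members were called in neither direction: the log2 differences were -0.23 for Dnajb9, -0.29 for Dnajc3, -0.20 for Hspa13 and -0.11 for Dnajc10. In all, 5 of 14 ER members fell and none rose (35.7% called, against 17% of all genes).

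Hspb1 (HSP27) was the small HSP that fell, from 216, 186, 153 and 165 CPM at 7 days to 89.6 to 167 CPM, median 120, at 30 days (log2 -0.65, edgeR adjusted p = 0.0158). The groups overlapped, since the 30-day ONP library 7 held 167 CPM. Hspb8, which works with the cofactor Bag3 in clearing aggregates, rose from 348, 272, 284 and 212 CPM to 296 to 643 CPM, median 487 (log2 0.76, edgeR adjusted p = 0.0219), with overlap. Hspb6 (HSP20) had a log2 difference of 0.34 that did not pass. Both calls, for Hspb1 and Hspb8, were lost when 1 of certain 7-day ONP libraries was left out: library 1 for Hspb1 (edgeR adjusted p = 0.0654) and library 2 or 6 for Hspb8 (up to 0.0664).

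In mitochondria 2 of 10 members were called, in opposite directions (20%, near the 17% of all genes). Dnajc19, a J protein of the import motor, was at 24.4 to 32.2 CPM at 7 days and 36.8 to 45.3 CPM at 30 days, without overlap (log2 0.53, edgeR adjusted p = 0.00825). The chaperonin Hspd1 fell by 0.32 (edgeR adjusted p = 0.0418), a call that was lost in 8 of 11 fits that left out 1 library. Its partner Hspe1, which shares a bidirectional promoter with it, and the mitochondrial HSP70 Hspa9 did not pass, at 0.20 and -0.05. The remaining members called were Dnajc9, a histone chaperone, which rose by 0.63, Dnajb13, a protein of motile cilia, which rose by 1.01, the endosomal Dnajc13, which fell by 0.70, Hspbap1, which fell by 0.65, and Dnajb2, which feeds clients to the proteasome and fell by 0.37.

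By class, 7 of the 13 heat-inducible members were called (1 higher, 6 lower, median -0.32), 3 of the 13 constitutive members (all lower, median -0.10), 3 of the 7 ER stress-inducible members (all lower, median -0.29) and 8 of the 34 tested members that were not classed (3 higher, 5 lower, median 0.09). Among the heat-inducible members not called were Dnaja1 (-0.11), Dnajb1 (-0.13), Dnajb4 (0.20) and Dnaja4 (-0.17), the cytosolic J proteins of that class. None of the 4 DNAJA genes passed. HSP names accounted for 13 of the 21 calls (of 27 tested) and DNAJ names for 8 (of 40 tested). The share called was 20% of the DNAJ genes, 23.1% of the constitutive and 23.5% of the unclassed members, near the 17% of all genes, and 53.8% of the heat-inducible and 48.1% of the HSP-named members. These classes were drawn up with earlier results of these data known, so the counts are a description.

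**Figure D2:**
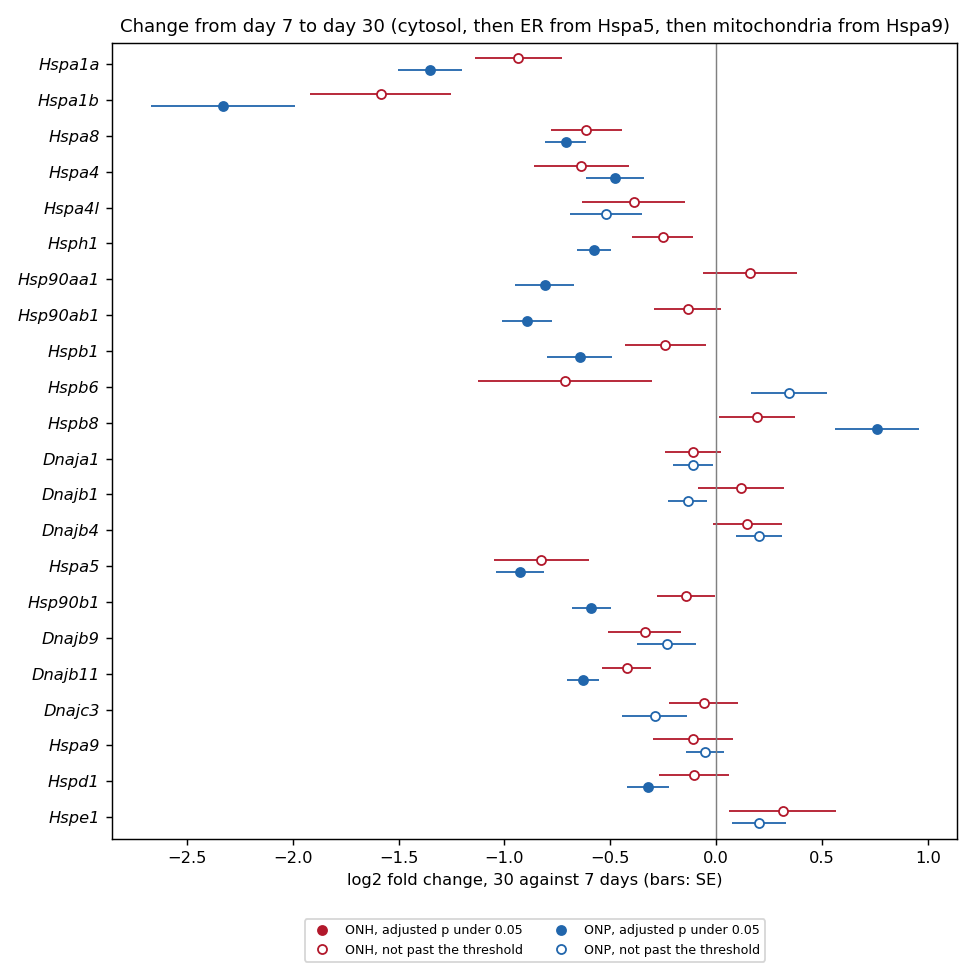
Log2 difference between 30 and 7 days in the ONH (red) and the ONP (blue) for 22 members, with bars of 1 SE and filled points where the edgeR adjusted p was under 0.05. Hspa1b and Hspa1a lie farthest to the negative side in both regions, at -2.33 and -1.35 in the ONP, and filled points occur in the ONP alone.

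Oligodendrocyte markers moved with these genes: 4 of the 5 fell in the ONP between 7 and 30 days, while 1 of 8 astrocyte markers passed and was higher. Of the other markers tested, 2 of 5 endothelial, 2 of 4 neuronal, 2 of 3 mural, 1 of 3 photoreceptor, 1 of 2 pigment cell, 1 of 4 surface epithelium and none of 6 microglial ones fell. Of 6 immediate early genes, which are switched on quickly by stimuli and handling, 1 fell, and all 6 had negative differences in the ONP (median log2 -0.25) and, with none called, in the ONH (median -0.60). The summed levels were 61.3 to 99.6 CPM at 7 days and 6.92 to 62.1 CPM at 30 days for endothelium, 13.4 to 38.3 and 10.7 to 20.5 CPM for neurons, and 39.8 to 71.6 and 24.7 to 40.8 CPM for mural cells. No marker of these lists was at 0 in every library of either group. The immediate early sum was 380 to 650.3 CPM at 7 days and 289 to 465 CPM at 30 days. The part of these markers in the results was not tested.

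Ratios of 2 genes inside a library do not depend on library scaling, and 4 of them were compared over 4 comparisons, with p adjusted over all 16. Counts of Hspa1a and Hspa1b together were 2.17 to 4.19% of those of Hspa8 in the 7-day ONP libraries and 1.16 to 1.94% in the 30-day ones. The ratio was thus lower in all 7 of the 30-day libraries, by 0.95 on the log2 scale (exact two-sided permutation test, p = 0.00606, adjusted 0.0242): inducible HSP70 fell by more than constitutive HSP70. Hspa9 moved the other way against Hspa8, from 7.62 to 9.94% to 11.5 to 15.4%, higher in all 7 libraries (log2 0.65, exact permutation adjusted p = 0.0242). In both cases leaving out any 1 of the 4 7-day libraries gave an exact permutation adjusted p of 0.0533. The groups stayed separate in these tests, so p was the smallest that the remaining libraries allow. That loss of the call therefore reflects the number of libraries. The ratios of Hsp90aa1 to Hsp90ab1 and of Hspa5 to Hspa8 differed by 0.06 and -0.22 and did not pass, although the latter passed without the 30-day ONP library 3 (-0.28, exact permutation adjusted p = 0.0485).

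In the ONH the same question gave no call for a single gene. None of 68 members passed, and none of 15668 genes did (0%). At an unadjusted p under 0.05 there were 15 members and 13.9% of all genes, and DESeq2 called 6 members (5 lower and 1 higher) and 2.57% of all genes. The DESeq2 calls were Hspa1b, Hspa1a, Hspa5, Hspa8 and Dnajb11, lower at 30 days, and Dnajc15, higher. Medians were -0.10 over the members and -0.02 over all genes, and 4 members had no overlap between groups (2.28% of all genes): Hspa1b, Dnajb11 and Dnajb6, all lower at 30 days (0.53% of all genes), and Dnajc8, higher (1.76%).

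Hspa1b in the ONH stood at 61.2, 26.4, 19.2 and 66 CPM at 7 days and at 7.78 to 18.3 CPM, median 16.5, at 30 days. The groups did not overlap, the highest 30-day library lying just under the lowest 7-day one, with a log2 difference of -1.58 (SE 0.33, edgeR adjusted p = 0.18). Hspa1a stood at 71.7, 55.6, 41.4 and 63.3 CPM and then at 21.5 to 45.3 CPM (log2 -0.93), and its highest 30-day library lay above library 5 at 7 days. Without the 7-day ONH library 5, the lowest of its group for both genes, the differences became -1.83 and -1.07 and passed the threshold (edgeR adjusted p = 0.0367 and 0.0436). Hspa5 differed by -0.83, Hspa8 by -0.61 and Dnajb11 by -0.42, each with an edgeR adjusted p of 0.189. Within libraries Hspa9 was at 10.1 to 14.9% of Hspa8 counts at 7 days and 12.3 to 18.4% at 30 days (log2 0.46, exact permutation adjusted p = 0.0388), a call that was lost in 10 of 11 tests that left out 1 library (up to 0.0593). The ratio of Hspa1a plus Hspa1b to Hspa8 differed by -0.52, that of Hsp90aa1 to Hsp90ab1 by 0.32 and that of Hspa5 to Hspa8 by -0.21, none past the threshold (exact permutation adjusted p = 0.0539, 0.0539 and 0.187).

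The HSP90 genes were not called in the ONH. Hsp90ab1 was at 1347, 1234, 2194 and 1416 CPM at 7 days and at 1299 to 1617 CPM, median 1406, at 30 days. Hsp90aa1 was at 357, 322, 745 and 417 CPM and then at 409 to 691 CPM, median 506. In both cases the highest 7-day value belonged to library 5, which was also highest for Hspb1 (480 CPM against 296 to 328 in the others) and Hspe1 (65.5 against 29.3 to 36.8). The log2 differences were -0.13 for Hsp90ab1, 0.16 for Hsp90aa1 and -0.14 for Hsp90b1, and without library 5 they were 0.08, 0.49 and -0.13, none past the threshold. Of the other members named in each comparison, the ONH differences ran from -0.71 (Hspb6) to 0.31 (Hspe1), with Hspa4 at -0.64, Hspa4l at -0.39, Dnajb9 at -0.34, Hsph1 at -0.25 and Hspb1 at -0.24.

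Whether the regions differed in this change was tested as an interaction over the 4 groups. No member of 69 passed with edgeR, against 0.543% of all genes, and 9 were at an unadjusted p under 0.05 (12.6% of all genes). DESeq2 called 1, against 2.28% of all genes. The smallest p belonged to the HSP90 genes: the ONP change minus the ONH change was -0.75 for Hsp90ab1 (SE 0.20, edgeR adjusted p = 0.0787), -0.96 for Hsp90aa1 (SE 0.28, 0.113) and -0.44 for Hsp90b1 (0.227). With same-numbered 30-day libraries as a block in limma-voom Hsp90ab1 and Hsp90aa1 passed, at adjusted p of 0.0396 and 0.0498. Both also passed without the 7-day ONH library 5, at -0.97 and -1.30 (edgeR adjusted p = 0.00822 and 0.00962). For Hspa1a (-0.41), Hspa1b (-0.74), Hspa5 (-0.10) and Hspa8 (-0.09) the test gave no difference between the regions past the threshold (edgeR adjusted p from 0.554 to 0.928).

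**Figure D3:**
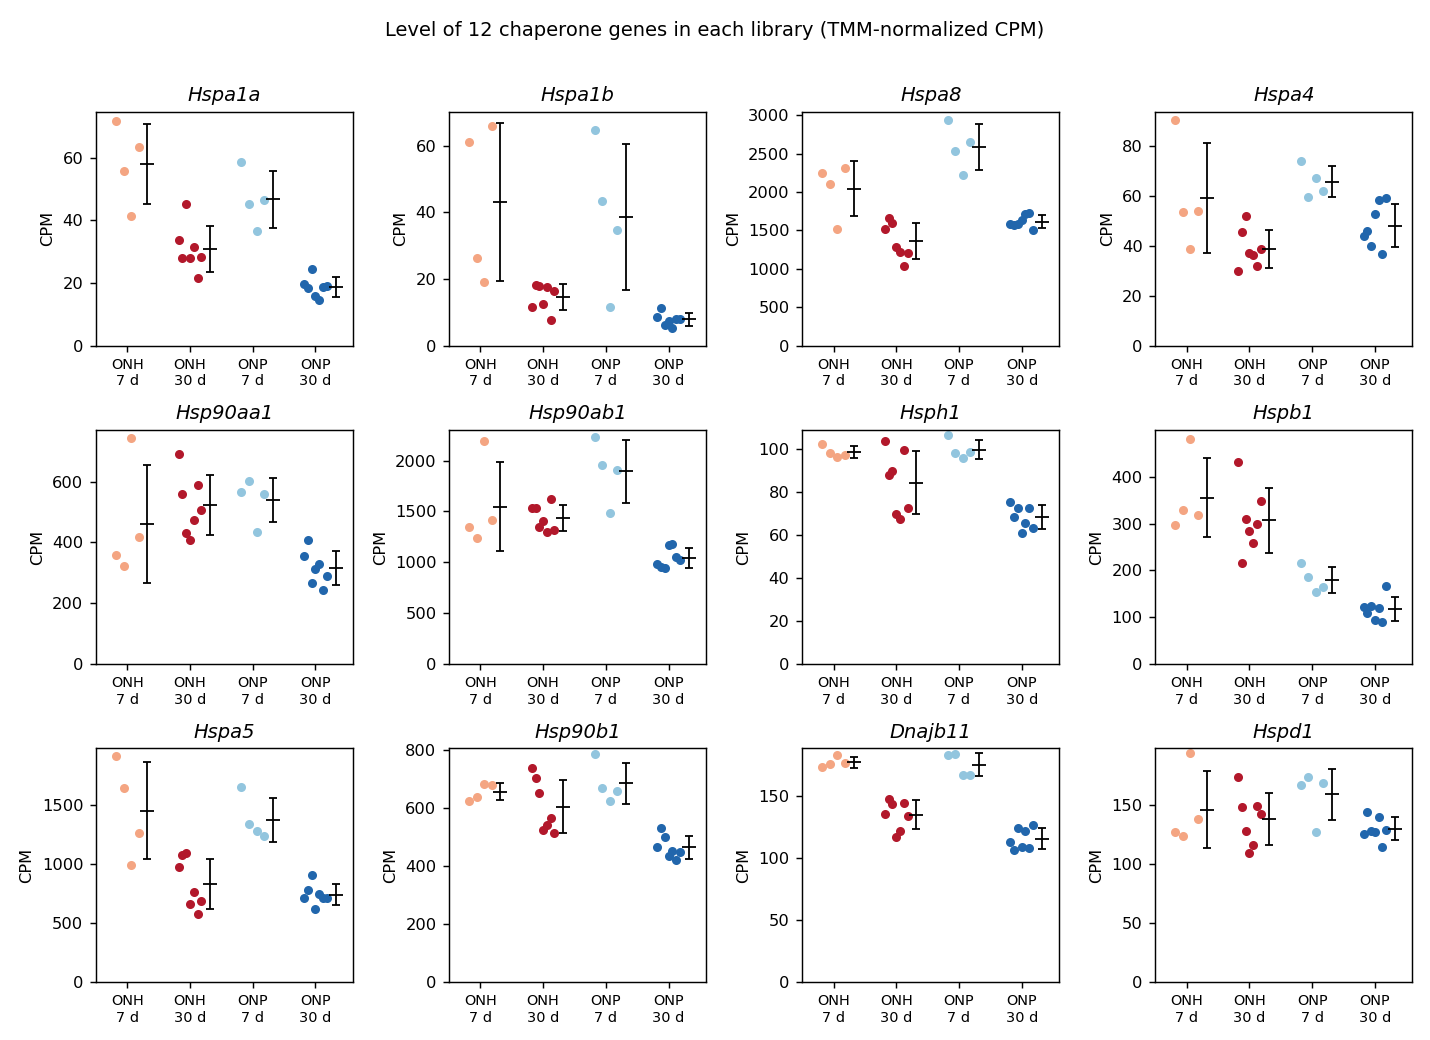
TMM-normalized CPM of 12 members in every library, 1 point each, with the mean and SD of each group in black. In the ONP the 30-day points of Hspa1a, Hspa1b, Hspa8 and Hspa5 all lie under the 7-day points, while in the ONH those of Hspa1a, Hspa8 and Hspa5 overlap, and for Hsp90aa1 and Hsp90ab1 a single 7-day ONH library lies far above its group, at 745 and 2194 CPM.

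The next question was how the ONH differed from the ONP at 30 days, with 7 libraries of each. A total of 66 members were tested and 30 passed (edgeR quasi-likelihood test, Benjamini-Hochberg), 22 higher and 8 lower in the ONH, against 41.8% of all genes (21.8% higher and 20% lower). The median log2 difference was 0.16 over the members and -0.01 over all genes, and 11 members did not overlap, against 16.4% of all genes. All 7 heat-inducible members called, of 13, were higher in the ONH, as were all 3 ER stress-inducible members called, of 7, while the 6 constitutive members called were 3 higher and 3 lower. In the cytosol and nucleus 13 were higher and 5 lower of 36, in the ER 4 and 1 of 14, and in mitochondria 3 and 1 of 10.

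Hspb1 (ENSMUSG00000004951, chromosome 5, 135887919 to 135889563), which stabilises actin as well as damaged proteins, had the widest gap on the higher side. It was at 215 to 431 CPM, median 299, in the ONH and 89.6 to 167 CPM, median 120, in the ONP, without overlap. The log2 difference was 1.38 (SE 0.16, 2.6-fold, edgeR adjusted p = 1.06e-05). Its relative Hspb6 went the opposite way, at 8.01 to 36.7 CPM, median 27, in the ONH and 52 to 107 CPM, median 70.3, in the ONP. Here too the groups were separate, and the difference was -1.61 (SE 0.28, edgeR adjusted p = 0.000327). Hspb8 was not called, at -0.30 (edgeR adjusted p = 0.106).

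Among the HSP90 genes all 3 were higher in the ONH at 30 days. Hsp90aa1 was at 409 to 691 CPM against 244 to 408 CPM in the ONP, and Hsp90ab1 at 1299 to 1617 against 941 to 1179 CPM, neither with overlap. The log2 differences were 0.72 and 0.46 (edgeR adjusted p = 0.000572 and 0.000593), and 0.38 for Hsp90b1. Hspa1a was at 21.5 to 45.3 CPM against 14.6 to 24.6 CPM (log2 0.72, edgeR adjusted p = 0.00222) and Hspa1b at 7.78 to 18.3 against 5.21 to 11.4 CPM (log2 0.90, edgeR adjusted p = 0.00389), both with overlap. Hspa8, the major constitutive HSP70, was not called, at -0.25 (edgeR adjusted p = 0.0906), and neither were Hspa5 (0.17), Hspa9 (0.02) and Hspa4 (-0.31). The ratio of Hspa1a plus Hspa1b to Hspa8 was 2.78 to 4.06% in the ONH and 1.16 to 1.94% in the ONP, higher in all 7 ONH libraries (log2 1.02, exact two-sided permutation test, p = 0.000583, the smallest these libraries allow, adjusted 0.00932), and Hspa5 to Hspa8 was higher by 0.41 (exact permutation adjusted p = 0.0140). The ratios of Hspa9 to Hspa8 (0.25, exact permutation adjusted p = 0.0539) and of Hsp90aa1 to Hsp90ab1 (0.27, 0.105) did not pass, but did so without the ONH library 4 (0.0186) and without the ONP library 2 (0.0261), respectively. With same-numbered libraries taken as pairs, the exact permutation adjusted p was 0.05 for Hspa1a plus Hspa1b to Hspa8 and for Hspa5 to Hspa8. Neither was then under the threshold, and 7 pairs limit p.

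**Figure D4:**
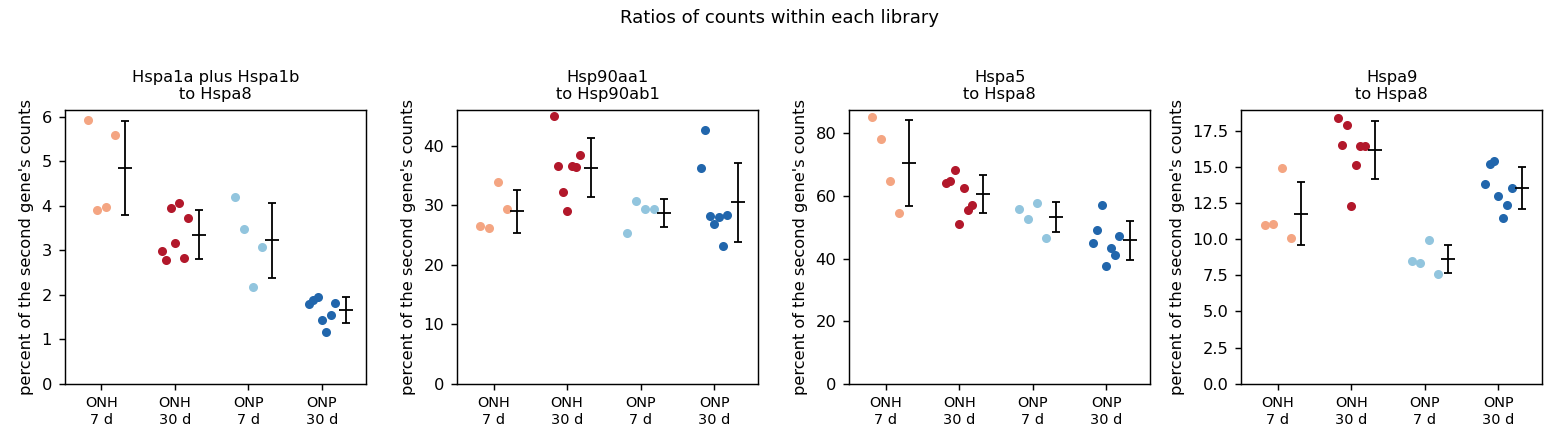
Counts of one gene as a percent of another in each library, in the 4 groups, with the mean and SD in black. The share of Hspa1a plus Hspa1b in Hspa8 was lowest in the 30-day ONP, at 1.16 to 1.94%, and highest in the 7-day ONH, at 3.90 to 5.92%.

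Of the chaperonins, Hspe1 was at 39.5 to 76 CPM in the ONH and 23 to 37.1 CPM in the ONP (log2 0.77, edgeR adjusted p = 0.00157), without overlap, whereas its folding partner Hspd1 differed by 0.09 and was not called. The mitochondrial J proteins Dnajc19 and Dnajc30 were higher by 0.57 and 0.42, and Dnaja3 was lower by 0.49. Among the other J proteins higher in the ONH were Dnajc12 (1.11), which guards aromatic amino acid hydroxylases, the ER membrane protein Dnajc1 (0.79), the ribosome biogenesis factor Dnajc21 (0.78), Dnajb3 (0.78), the spliceosome-linked Dnajc17 (0.70) and Dnajc8 (0.46), and the ER stress-inducible Dnajc3 (0.40). Lower in the ONH were Dnajc6 (-1.31), also known as auxilin, which uncoats clathrin vesicles with Hspa8, Dnajb13 (-1.23), Hspa2 (-0.76), Dnajb12 (-0.65), the synaptic vesicle protein Dnajc5 (-0.50) and Dnajb2 (-0.32). Hsph1 (0.30) and Dnajb11 (0.22) were called higher, and with the replicate block the calls of Dnajb11 and Hspb11 were lost (edgeR adjusted p = 0.0624 and 0.0730). Leaving out 1 library ended the calls of Dnaja4, Dnajb11, Dnajc3, Dnajc7, Dnajc21, Hspb11 and Hsph1 in 4 to 9 of 14 fits each, with edgeR adjusted p up to 0.103.

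The remaining members named in each comparison were not called at 30 days between the regions, namely Dnaja1 (0.16), Dnajb1 (-0.21), Dnajb4 (0.03), Dnajb9 (-0.002) and Hspa4l (0.07). Other cell types moved with region. At 30 days 4 of 5 oligodendrocyte markers were lower in the ONH, while 4 of 4 photoreceptor, 4 of 4 pigment cell and 3 of 4 neuronal markers were higher. Of the 8 astrocyte markers 1 was higher and 3 were lower, of 3 mural markers 2 were higher and 1 lower, and 1 endothelial marker of 5, the pituitary marker tested and 2 of 6 immediate early genes were higher, while 1 of 2 oligodendrocyte precursor and 1 of 6 microglial markers were lower. The photoreceptor sum reached 1714 CPM in 1 ONH library and 43.4 CPM at most in the ONP at that time. Their part in the results was not tested.

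**Figure D5:**
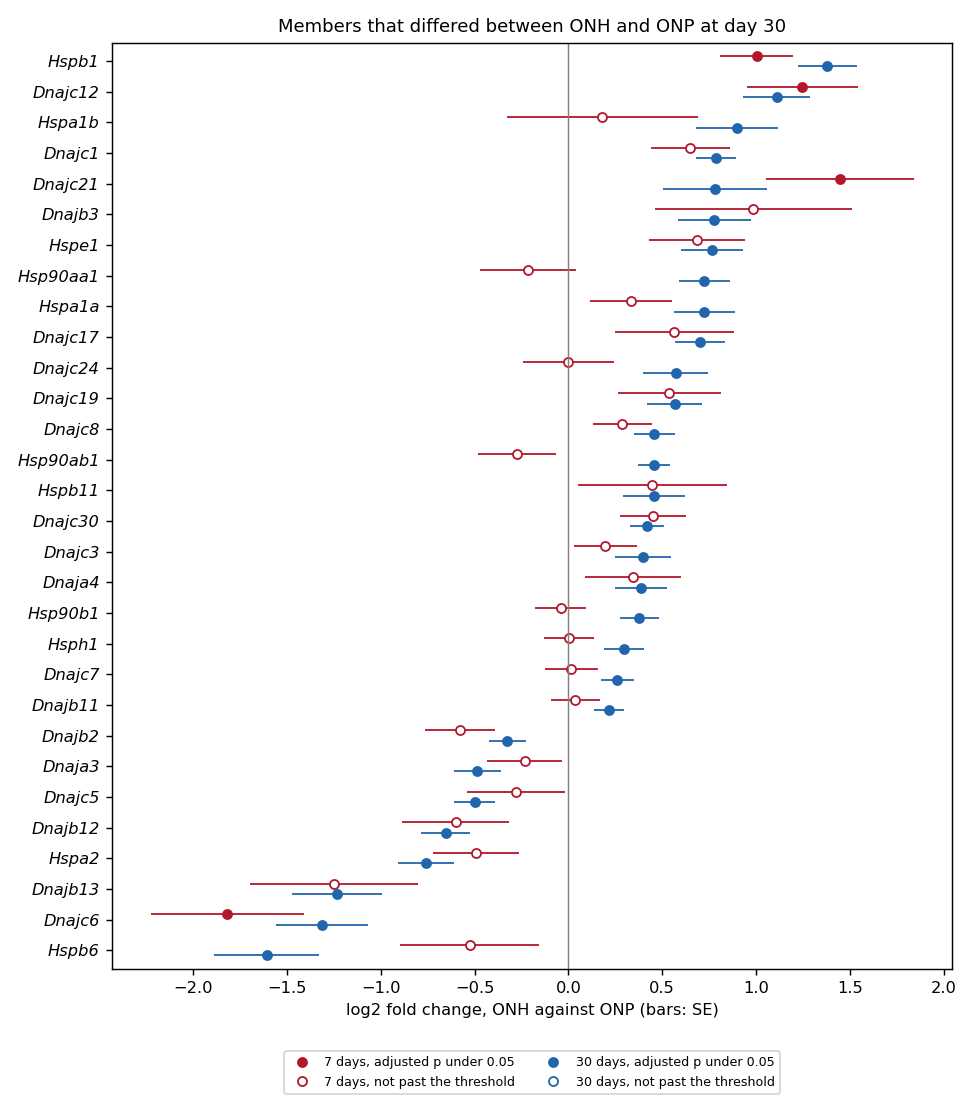
Log2 difference of the ONH from the ONP at 7 days (red) and 30 days (blue) for the 30 members called at 30 days, with bars of 1 SE and filled points for an edgeR adjusted p under 0.05. Hspb1, Dnajc12 and Dnajc21 lie on the positive side and Dnajc6 on the negative side with filled points at both times, and the bars are wider at 7 days.

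At 7 days, with 4 libraries of each region, 4 of 66 members passed, 3 higher and 1 lower, against 13.2% of all genes (6.34% higher and 6.81% lower). Higher in the ONH were Hspb1 (log2 1.0, edgeR adjusted p = 0.00677), Dnajc12 (1.25, 0.0193) and Dnajc21 (1.45, 0.0353), and lower was Dnajc6 (-1.82, 0.0149). Hspb1 was at 296, 328, 480 and 319 CPM in the ONH and 216, 186, 153 and 165 CPM in the ONP, so every ONH library was higher. Dnajc12 was at 32.6 to 57.9 CPM against 14.9 to 29.1 CPM, and Dnajc6 at 1.97 to 8.58 against 13.7 to 21.1 CPM. Groups were separate for 11 members, or 16.7% of those tested, against 21.7% of all genes, and DESeq2 also called 11 (8 higher, 3 lower), against 18.3% of all genes. Scaled to library size alone there were 7 higher and 1 lower, with the median of all genes moving from 0.07 to 0.18. Without the ONP library 1, 2 or 6 the count was 2, and the call of Dnajc21 was lost in 7 and that of Dnajc12 in 4 of the 8 fits that left out 1 library (edgeR adjusted p up to 0.101 and 0.0707).

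The HSP90 genes had the opposite sign at 7 days, Hsp90aa1 at -0.22, Hsp90ab1 at -0.27 and Hsp90b1 at -0.04, and none was called. Hspa1a (0.33), Hspa1b (0.18), Hspa8 (-0.32), Hspa5 (0.10), Hspa9 (0.10), Hspa4 (-0.13), Hspa4l (-0.03), Hsph1 (0.0032), Hspd1 (-0.11) and Hspe1 (0.68) did not pass either, nor did Hspb6 (-0.53), Hspb8 (0.30), Dnaja1 (0.19), Dnajb1 (-0.43), Dnajb4 (0.11), Dnajb9 (0.13), Dnajb11 (0.04) and Dnajc3 (0.20). All 5 oligodendrocyte markers were lower and all 4 pigment cell markers higher in the ONH at 7 days, and 2 of 8 astrocyte markers were lower. Also higher were 3 of 3 photoreceptor, 2 of 4 neuronal, 1 of 4 mural and 1 of 5 endothelial markers and 1 of 6 immediate early genes. The photoreceptor sum reached 4890 CPM in the 7-day ONH library 6 and 109 CPM at most in the 7-day ONP. The part of these markers in these values was not tested.

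Partners of the chaperones were read from the same fits in a list of 47 genes. In the ONP 19 of 46 passed between 7 and 30 days, 4 higher and 15 lower (41.3%, against 17% of all genes). The largest falls were in the factor Hsf5 (-1.84), Hyou1, the large ER HSP70 (-1.09), the HSP90 activator Ahsa2 (-0.85), Bag6 (-0.61) and the HSP90 immunophilin Fkbp4 (-0.60). Of the 9 genes listed for the cytosolic CCT chaperonin 6 fell, Tcp1 among them (-0.44). Cct6b of this list lay near the floor, at means of 0.460 CPM in the 7-day and 0.922 CPM in the 30-day ONP. Hsf5 lay near the floor, at 0.919 to 1.91 CPM in the 7-day and 0.207 to 0.612 CPM in the 30-day ONP libraries. Stip1, which links HSP70 to HSP90, fell by 0.45. Higher were Hsf4 (1.75), the Hsf1 inhibitor Hsbp1 (0.52), the ubiquitin ligase Stub1 (0.35) and the mitochondrial nucleotide exchange factor Grpel1 (0.32). Hsf1 itself (0.02), Bag3 (0.24), the small HSP Cryab (-0.14) and the mitochondrial HSP90 Trap1 (-0.26) were not called. Of the genes named here the calls of Bag6, Grpel1 and Stub1 were lost in 3, 5 and 1 of 11 fits that left out 1 library, as were those of the CCT subunits Cct4, Cct6a and Cct8 in 10, 2 and 5 (edgeR adjusted p up to 0.108).

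None of 45 partners passed in the ONH between 7 and 30 days (9 at an unadjusted edgeR p under 0.05, against 13.9% of all genes), where Hsf1 was at -0.33, Bag3 at -0.06, Cryab at 0.21, Hyou1 at -0.42 and Trap1 at -0.48, and none of 46 passed the interaction (6 at an unadjusted edgeR p under 0.05, against 12.6%). Between the regions at 30 days 17 of 45 passed, 12 higher and 5 lower in the ONH, or 37.8%, which is below the 41.8% of all genes. The highest were Bag6 (1.2), Hscb (0.86), Ahsa2 (0.68), Stub1 (0.67) and Sec63 (0.66), and the lower ones Hsf4 (-1.11), Fkbp5 (-0.92), Trap1 (-0.55), Bag4 (-0.40) and Cct4 (-0.25). At 7 days Stub1 (0.81) and Bag5 (0.60) were higher and Cdc37l1 was lower by 0.78, 3 of 45 partners against 13.2% of all genes. The calls of Stub1 and Bag5 were each lost in 6 of 8 fits that left out 1 library (edgeR adjusted p up to 0.118 and 0.136), and at 30 days that of Cct4 was lost in 8 and that of Fkbp5 in 1 of 14.

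Several of these genes share exon sequence with a neighbour on the opposite strand, and the library kit does not record strand, so reads there cannot be assigned with certainty. This holds for 1581 bases of Dnaja4 with Wdr61, 749 of Dnajc1 with Mllt10, 564 of Hspa1a with Gm20481, 415 of Hsp90b1 with 1810014B01Rik, 305 of Dnajb13 with Ucp2, 154 of Dnajc7 with Cnp, 122 of Hspb6 with Proser3 and 112 of Hspd1 with Hspe1. It also holds for 608 bases of Dnaja1 with Smu1, 436 of Dnajc30 with Bud23 and 430 of Hspbap1 with Gm26838. Smaller stretches were 232 bases of Dnajc13 with Gm37563, 178 of Dnajc19 with Fxr1, 153 of Dnaja3 with Coro7 and 108 of Dnajc17 with Zfyve19. The list is not complete.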

How the data were processed

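RNA was sequenced as paired 150-base reads from an oligo-dT, unstranded kit. The authors aligned reads to mm10 with STAR 2.6.1d, quantified them with Salmon 0.14.2 and tested with DESeq2 1.34.0 in R 4.1.0. The deposited values are the authors' estimated counts per gene from Salmon, given as whole numbers without normalization, with 1 column for each of 22 libraries and no column left unused. 7-day columns could be placed by group only. The authors took ONH and ONP tissue from the same mice, but the labels do not say which libraries share a pool. Deviations of same-numbered 30-day libraries from the group means correlated for every number (0.115 to 0.562). Numbers 3, 5, 6 and 7 correlated best with their own number, and numbers 1, 2 and 4 with 2, 3 and 5. A replicate block by number was therefore run at 30 days as an alternative only.

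Each comparison of 2 groups was fitted over all genes kept by filterByExpr with edgeR 4.0.16 (R 4.3.3): TMM, quasi-likelihood test, Benjamini-Hochberg adjustment, threshold 0.05, no minimum fold. The interaction used all 4 groups. The edgeR fit of each comparison was run on simulated counts, with 1 fixed spread for all genes and comparisons. In the real data the common biological coefficient of variation ran from 35% (ONP over time) to 48.2% (ONH over time). The simulation therefore does not show how many true changes the noisier comparisons would miss. The alternatives, blocks and permutation tests were not simulated. Alternatives were DESeq2 1.42.0, limma-voom (limma 3.58.1), other scalings and filters, and leaving out each library. Levels between genes were divided by merged exon length. Ratios used exact permutation tests. Libraries were pools of 4 mice prepared together, so p-values measure the spread between pools.

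Members, classes, partner genes and marker lists were chosen with earlier results of these data known. Named were all called members up to the 10 largest in each direction, 22 fixed members in every comparison, the 5 highest members, those too low to test, and called partners up to 5 in each direction with Hsf1, Bag3, Cryab, Hyou1 and Trap1. Other genes named, such as those not overlapping or flagged by a distant library, were chosen after their values were seen. 1 gene of the marker lists is not reported here and stayed out of their sums. With 3 counts taken as the floor, limits cover counting error only.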

Additional observations from a re-analysis of the deposited data

Results flagged for a closer look

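The highest and lowest libraries of each group were tested for distance from the rest (Dixon's test, 95% level) in 50 members over 4 groups, 200 tests in all. Chance alone flags about 1 in 20, and 10 values were flagged here, as many as that rate gives. None of them was in the 7-day ONH library 5. In the 30-day ONH, Dnajb12 reached 36.1 CPM in library 5 against 21.6 to 26.3 CPM in the other 6, Dnajb4 reached 77.7 CPM in library 1 against 46.3 to 59.4 CPM, and Dnajc9 reached 161 CPM in library 6 against 106 to 127 CPM. Dnajc9 was also high in 1 of the 7-day ONH libraries, number 3, at 136 CPM against 86.7 to 89.2 CPM. In the 30-day ONP, Dnajc8 stood at 183 CPM in library 3 against 130 to 149 CPM, and Hspb1 at 167 CPM in library 7 against 89.6 to 123 CPM. The 7-day ONP library 5 was flagged for 3 members: high for Dnajc12 (29.1 against 14.9 to 17.1 CPM) and Dnajc21 (5.01 against 4.07 to 4.23 CPM), and low for Hspd1 (127 against 167 to 174 CPM). Hspb6 was low in the 7-day ONP library 6, at 43.5 CPM against 61.0 to 62.0 CPM.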

How the results depend on the processing

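The count of members called in the ONP (21) was 13 with all 4 groups in 1 fit and 14 to 23 with 1 library left out. Hspb1, Hspb8, Hspd1, Hspa4, Dnajb2, Dnajb13, Dnajc1, Dnajc13 and Dnajc16 lost their call in at least 1 such fit. In the ONH (0) it was 6 with DESeq2, 5 with all groups and 0 to 3 with 1 library left out, 3 being without the 7-day ONH library 5. Between regions at 30 days (30) it was 23 to 31 with 1 library left out and 32 with the replicate block. At 7 days (4) it was 11 with DESeq2, 8 by library size alone, 16 with all groups and 2 to 6 with 1 library left out. For the interaction (0) it was 1 with DESeq2, 2 with the replicate block on same-numbered 30-day libraries and 0 to 2 with 1 library left out. With all groups in 1 fit the spread is shared, and the cause of the other changes was not tested. At 7 days 3 column numbers occur in both regions, and with these numbers as a replicate block the count was 0 (edgeR; 8 at an unadjusted p under 0.05), against 3 in the same 6 libraries without the block, a fit added after seeing the data. Deviations of those same-numbered libraries correlated at 0.013 to 0.186, and 1 of the 3 correlated best with its own number, so the numbers were not taken as pairs. Over time no block was run, as the mice differ.

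Of the ratios, Hspa1b alone to Hspa8 in the ONP differed by -1.42 (exact permutation adjusted p = 0.0539), and the paired test at 30 days (replicate block) left 1.02 for Hspa1a plus Hspa1b and 0.41 for Hspa5 to Hspa8 (exact permutation adjusted p = 0.05), where 7 pairs limit p. With 1 library left out, log2 ratios ran from -1.12 to -0.81 (Hspa1a plus Hspa1b, ONP over time), 0.40 to 0.58 and 0.59 to 0.72 (Hspa9 to Hspa8 over time in the ONH and ONP), 0.21 to 0.32 (the same between regions at 30 days), -0.28 to -0.18 (Hspa5 to Hspa8, ONP over time), and for Hsp90aa1 to Hsp90ab1 0.21 to 0.35 between regions at 30 days, -0.068 to 0.058 at 7 days and -0.021 to 0.13 in the ONP over time.

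Signs turned in single genes that were far from the threshold. By library size alone the interaction was 0.025 for Hspa4l, 0.055 for Hspa5, 0.059 for Hspa8 and 0.054 for Hspe1. With 1 library left out the interaction ran from -0.045 to 0.11 for Dnaja1, -0.011 to 0.18 for Dnajb4, -0.091 to 0.32 for Hspa4, -0.21 to 0.085 for Hspa4l, -0.23 to 0.055 for Hspa5, -0.14 to 0.030 for Hspa8 and -0.42 to 0.053 for Hspe1. In the ONH over time the range was -0.035 to 0.37 for Dnajb1, -0.15 to 0.018 for Dnajc3, -0.23 to 0.078 for Hsp90ab1 and -0.18 to 0.060 for Hspd1.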
